A study of Mus musculus with 9 samples.

Results

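Interferon-stimulated antiviral genes were followed here in mouse bladders that carried an experimental tumour and in healthy bladders. The set was a written list of 38 gene symbols, looked up in the probe-to-gene table of the array, with the probe set of the highest mean over the arrays taken for each gene. Of the 38 genes, 35 were found among the 17097 genes measured, and 34 of these passed the filter that left 11969 genes for testing. Levels of Isg15, Bst2 and Ifi44, which matched no probe set in that table, were not analysed here, and Mx1 was measured but lay below the filter. By role the 38 genes were 3 transcription factors, 4 sensors of nucleic acids, 14 antiviral effectors, 8 genes of the ISG15, ubiquitin and ADP-ribose systems, 4 other induced genes and 5 GTPases.

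The series holds 9 Affymetrix arrays of total RNA from whole bladders of female C57BL/6J mice, run as 2 numbered experiments. Tumours were started on day 0 with MB49, a line of mouse bladder carcinoma cells, put into bladders whose lining had been prepared with poly-L-lysine. Tumour-bearing mice then received alpha1-oleate, a complex of a peptide of alpha-lactalbumin with oleate, into the bladder every other day from day 3 to day 11, and their bladders were taken on day 12. Experiment 1 held a healthy PBS bladder, a tumour bladder given PBS as sham treatment, and 1 tumour bladder each at 1.7, 8.5 and 17 mM alpha1-oleate. Experiment 2 held a healthy PBS bladder, a sham-treated tumour bladder at day 12, and 2 arrays labelled as healthy bladders, one 24 h and one 7 d after 17 mM alpha1-oleate. Healthy PBS and tumour PBS thus had 2 arrays each and the other 5 groups 1 array each. The tumour groups rest on a single instilled cell line, ages are not in the labels, and nothing says whether arrays come from separate animals. A p-value here therefore reflects how these samples scatter, which may be technical scatter in part.

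Type I interferons signal through the receptor pair Ifnar1 and Ifnar2 to factors that include Stat2 and Irf9 and bind the interferon-stimulated response element of their target promoters. Interferon gamma signals through Ifngr1 and Ifngr2, acts through the gamma-activated site and also induces Irf1. The induced proteins sense foreign nucleic acids, block steps of virus growth, tag proteins with ISG15 or ADP-ribose, and, as GTPases, attack the vacuoles of intracellular microbes. In tumours the same genes are read as a sign of interferon acting on tumour or immune cells.

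One array went against its label in part. Mki67, a gene of dividing cells, read 6.83 log2 on the array labelled healthy, 17 mM, 24 h, against 3.41 in the healthy PBS bladder and 9.25 in the sham-treated tumour run beside it. Over the 11969 genes that array correlated with the sham-treated tumour at r = 0.858, while the healthy PBS bladder did so at r = 0.758. Its correlation with healthy PBS was 0.956. Values of that array are given under its label, and the numbers of member calls in the other comparisons were the same when it was left out. The median of all probe sets lay between 4.42 and 4.45 log2 in experiment 1 and was lower in experiment 2, so levels are set side by side only within an experiment, and differences were fitted with the experiment as a block. All levels are log2 RMA intensities, in which a difference of 1 is a 2-fold ratio.

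The binding sites named above can be looked for in the promoters. Among the members, 28 had a RefSeq promoter (GRCm38.p6, 250 bases before to 50 after the annotated start), and 16 of the 28, or 57.1%, held the core of the response element on either strand, which is GAAA, any 2 bases and again GAAA. Among all 27025 genes with a listed promoter, 3.99% held it. The gamma-activated site core TTCNNNGAA was in 6 of the 28 (21.4%) and in 9.55% of all genes with a listed promoter. Both cores were found in 4 members, where they shared bases in 2, Bst2 and Ifitm3. The promoters below belong to the 4 members with the response element core and the largest difference between tumour and healthy bladder. They are printed 5′ to 3′ along the gene, with every match of the response element core in capitals, where TTTC on both sides of 2 bases is the core read on the opposite strand. The gamma-activated site core of Igtp, which begins 45 bases before the start, is left in lower case. Rsad2 lies at chr12:26456403-26456702 on the minus strand, Igtp at chr11:58199306-58199605, Gbp3 at chr3:142559794-142560093 and Ifit1 at chr19:34640639-34640938 on the plus strand.
Rsad2: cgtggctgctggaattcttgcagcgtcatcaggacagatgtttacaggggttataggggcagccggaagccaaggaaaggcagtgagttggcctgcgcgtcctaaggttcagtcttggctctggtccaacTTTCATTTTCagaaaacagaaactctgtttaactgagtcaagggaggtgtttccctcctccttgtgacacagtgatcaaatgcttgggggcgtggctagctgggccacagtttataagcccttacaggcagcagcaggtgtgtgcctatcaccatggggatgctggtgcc
Igtp: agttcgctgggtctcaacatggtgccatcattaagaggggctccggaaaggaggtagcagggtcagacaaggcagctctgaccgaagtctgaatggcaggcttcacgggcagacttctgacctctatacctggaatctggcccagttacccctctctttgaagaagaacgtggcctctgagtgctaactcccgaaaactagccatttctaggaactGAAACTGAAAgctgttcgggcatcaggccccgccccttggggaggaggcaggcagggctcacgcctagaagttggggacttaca
Gbp3: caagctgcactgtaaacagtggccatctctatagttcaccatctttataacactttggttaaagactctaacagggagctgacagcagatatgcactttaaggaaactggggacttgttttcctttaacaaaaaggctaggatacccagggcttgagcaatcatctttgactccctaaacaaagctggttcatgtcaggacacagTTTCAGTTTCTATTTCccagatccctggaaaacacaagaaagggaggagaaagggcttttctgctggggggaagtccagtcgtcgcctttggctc
Ifit1: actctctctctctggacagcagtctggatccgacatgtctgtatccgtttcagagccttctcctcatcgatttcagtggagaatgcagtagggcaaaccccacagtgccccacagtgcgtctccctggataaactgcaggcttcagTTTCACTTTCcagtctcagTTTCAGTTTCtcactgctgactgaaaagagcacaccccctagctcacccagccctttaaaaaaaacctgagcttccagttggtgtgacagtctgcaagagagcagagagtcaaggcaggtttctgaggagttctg

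The core began 120 bases before the start in Rsad2, whose protein viperin makes a chain-terminating nucleotide, and 34 bases before it in Igtp. In Gbp3 there were 2 matches that share their middle bases, and in Ifit1 2 separate matches, 104 and 85 bases before the start. Several matches in one promoter occurred in 8 members. The 14 tested members with the core had a median tumour difference of 1.58 log2 (0.65 to 2.56) and the 11 tested members without it 1.48 (0.29 to 2.40). A match is a run of letters and was not tested as a binding site.

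**Figure D1:**
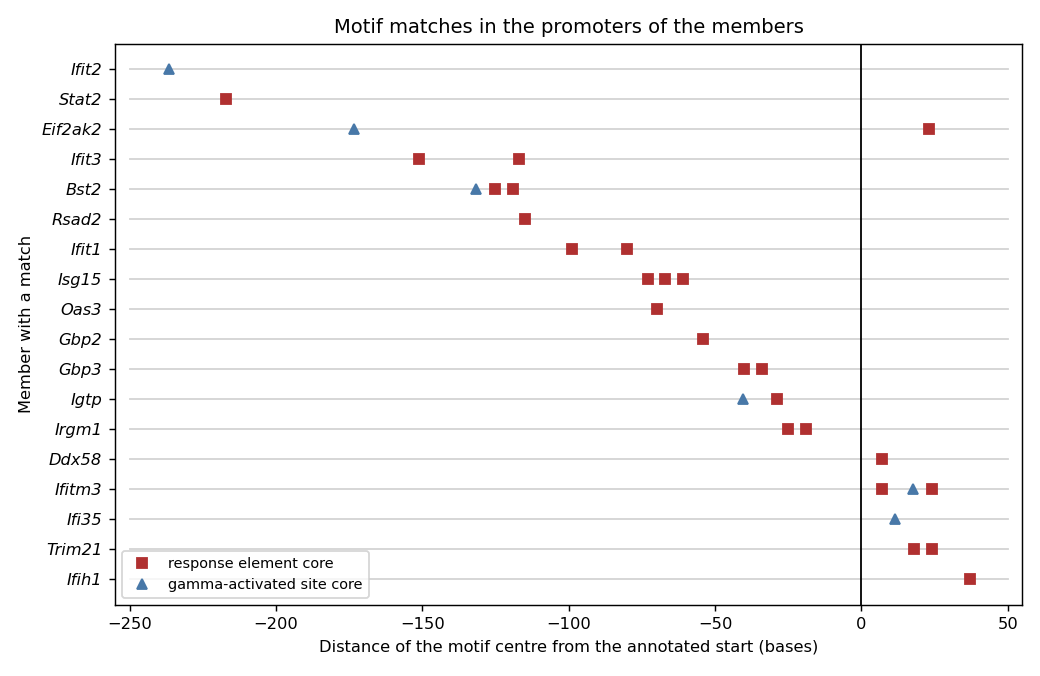
Positions of the motif matches in the 18 member promoters that hold at least one, as the distance of the match centre from the annotated start in bases. Squares are the response element core and triangles the gamma-activated site core. Rsad2 and Ifit1 carry their matches upstream of the start, while those of Trim21, Ddx58 and Ifih1 lie after it.

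The first comparison asks how the sham-treated tumour bladder differed from the healthy one. Of the 34 members tested, 30 rose and 1 fell (limma, Benjamini-Hochberg adjusted p under 0.05 over all 11969 genes). Over all genes 28.6% rose and 28.6% fell. The median member was 1.65 log2 higher in the tumour of experiment 1 and 1.44 higher in that of experiment 2, with 33 of 34 above 0 in each, against 0.02 and -0.03 over all genes. The 3 members without a call were Oas2, Mx2 and Trim25, and the member that fell was Usp18. In bulk tissue more cells of a type and more RNA per cell cannot be told apart.

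**Figure D2:**
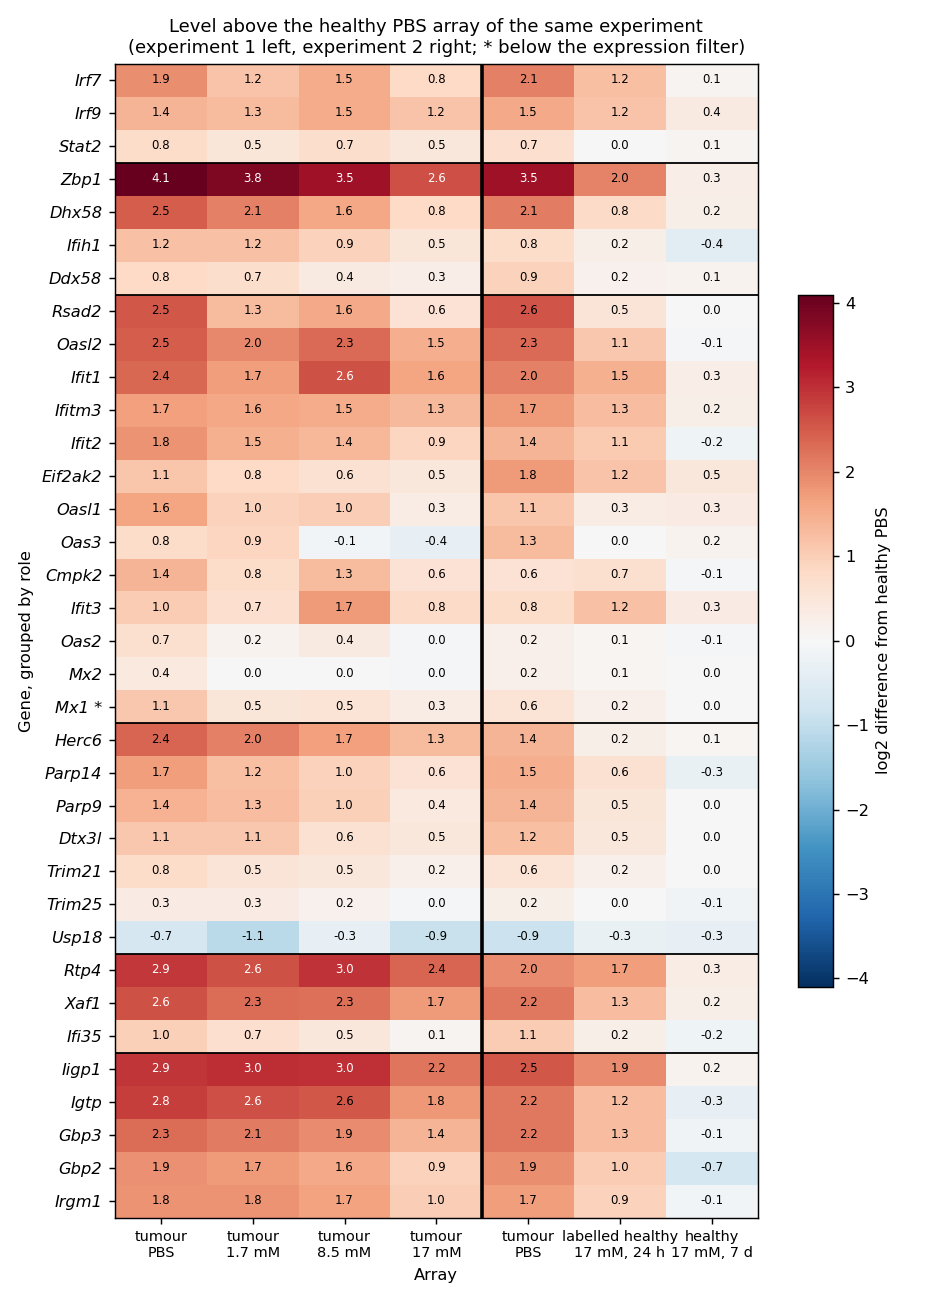
Difference of each array from the healthy PBS array of its own experiment, in log2, for the 35 measured members grouped by role. Red is higher and blue lower. Zbp1 shows 4.08 in the tumour of experiment 1 and 3.48 in that of experiment 2, Usp18 is blue in every column, and the 7 d column is near 0 for most members.

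All 3 transcription factors rose in the tumour. Irf7, which amplifies the interferon response, read 5.70 and 5.04 in healthy PBS (experiments 1 and 2), 7.62 and 7.12 in tumour PBS, 6.87, 7.23 and 6.52 at 1.7, 8.5 and 17 mM, and 6.28 and 5.14 at 24 h and 7 d. In each experiment the tumour lay above the healthy bladder, and the difference was 2.0 ± 0.10 (SE, 2 against 2 arrays; adjusted p = 0.00262). Irf9, a DNA-binding partner of Stat2, read 6.09 and 5.09 in healthy PBS, 7.49 and 6.64 in tumour PBS, 7.38, 7.61 and 7.26 over the doses, and 6.26 and 5.47 at 24 h and 7 d. Its 4 tumour arrays of experiment 1 lay close together and all above the healthy array, with a tumour difference of 1.48 ± 0.10 (adjusted p = 0.00349). Stat2, the STAT partner of Irf9, moved least, from 5.18 and 4.93 in healthy PBS to 5.94 and 5.63 in tumour PBS, with 5.67, 5.90 and 5.64 over the doses and 4.91 and 5.04 at 24 h and 7 d. Its difference was 0.73 ± 0.09 (adjusted p = 0.00924), and at 24 h it read no higher than in healthy PBS.

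All 4 sensors rose. Zbp1, which senses Z-form nucleic acids and can start necroptosis, read 4.44 and 4.12 in healthy PBS, 8.52 and 7.60 in tumour PBS, 8.27, 7.90 and 7.09 at 1.7, 8.5 and 17 mM, and 6.15 and 4.38 at 24 h and 7 d. Its tumour difference of 3.78 ± 0.19 (adjusted p = 0.00264) was the highest of the 34, and its levels fell from PBS through the 3 doses in order. Dhx58, the regulator LGP2 of the RNA sensors, read 5.39 and 3.71 in healthy PBS, 7.87 and 5.82 in tumour PBS, 7.44, 6.99 and 6.20 over the doses, and 4.51 and 3.94 at 24 h and 7 d. It too stepped down with each dose, and its tumour difference was 2.29 ± 0.13 (adjusted p = 0.00308). Of its 2 other probe sets, 1 read slightly lower in tumour than in healthy bladder in both experiments (-0.10 and -0.37). Ifih1, the RNA sensor MDA5, read 6.40 and 6.06 in healthy PBS, 7.60 and 6.81 in tumour PBS, 7.61, 7.34 and 6.91 over the doses, and 6.31 and 5.62 at 24 h and 7 d. Ddx58, the RNA sensor RIG-I, read 7.46 and 7.03, then 8.27 and 7.97, then 8.19, 7.82 and 7.72 over the doses, and 7.22 and 7.18 at 24 h and 7 d. Their tumour differences were smaller, at 0.97 ± 0.15 (adjusted p = 0.0156) for Ifih1 and 0.87 ± 0.09 (adjusted p = 0.00737) for Ddx58.

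Of the 14 antiviral effectors 13 were measured and 12 tested, and 10 rose in the tumour. Rsad2 read 6.15 and 5.59 in healthy PBS, 8.70 and 8.17 in tumour PBS, 7.45, 7.71 and 6.75 at 1.7, 8.5 and 17 mM, and 6.12 and 5.61 at 24 h and 7 d. Each dose array lay below the sham-treated tumour and above the healthy one, and the tumour difference was 2.56 ± 0.09 (adjusted p = 0.0024). Oasl2, an OAS-like protein, read 5.58 and 5.59 in healthy PBS, 8.05 and 7.92 in tumour PBS, 7.55, 7.89 and 7.06 over the doses, and 6.69 and 5.50 at 24 h and 7 d. The 2 experiments gave nearly the same step for it, 2.40 ± 0.10 (adjusted p = 0.0024). Ifit1, which binds viral RNA that lacks a host cap, read 4.83 and 4.25 in healthy PBS, 7.19 and 6.30 in tumour PBS, 6.54, 7.45 and 6.46 over the doses, and 5.71 and 4.51 at 24 h and 7 d. Its 8.5 mM array was its highest in experiment 1, and the tumour difference was 2.21 ± 0.12 (adjusted p = 0.00284). Ifitm3, which blocks virus fusion in endosomes, read 10.30 and 9.72 in healthy PBS, 11.97 and 11.46 in tumour PBS, 11.87, 11.82 and 11.63 over the doses, and 10.98 and 9.96 at 24 h and 7 d. All 4 tumour arrays of experiment 1 kept it well above healthy, with a tumour difference of 1.71 ± 0.09 (adjusted p = 0.00269).

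Smaller tumour differences among the effectors were 1.61 for Ifit2, 1.44 for the RNA-activated kinase Eif2ak2, 1.38 for Oasl1, 1.03 for Oas3, 0.99 for the nucleotide kinase Cmpk2 and 0.90 for Ifit3, all called. Mx2, a dynamin-like GTPase, changed least. It read 4.97 and 4.65 in healthy PBS, 5.37 and 4.85 in tumour PBS, 4.99, 4.97 and 4.93 over the doses, and 4.72 and 4.67 at 24 h and 7 d. Its difference of 0.30 ± 0.10 was not called (adjusted p = 0.088), nor was that of Oas2 (0.45 ± 0.15, adjusted p = 0.0871). Mx1 read between 2.61 and 4.93 over the 9 arrays, with its highest value in the sham-treated tumour of experiment 1.

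In the ISG15, ubiquitin and ADP-ribose group 7 of 8 genes were tested, of which 5 rose and 1 fell. Herc6, the mouse ligase that attaches ISG15, read 3.42 and 3.16 in healthy PBS, 5.80 and 4.54 in tumour PBS, 5.47, 5.10 and 4.73 at 1.7, 8.5 and 17 mM, and 3.40 and 3.24 at 24 h and 7 d. The step was larger in experiment 1 than in experiment 2, so its difference of 1.88 had the wide error of 0.29 (adjusted p = 0.0153). Parp14, an ADP-ribosyltransferase, read 6.68 and 5.76 in healthy PBS, 8.38 and 7.24 in tumour PBS, 7.91, 7.63 and 7.28 over the doses, and 6.39 and 5.44 at 24 h and 7 d. Parp9 and Dtx3l form a complex that joins ADP-ribosylation to ubiquitin. Parp9 read 7.55 and 6.75 in healthy PBS, 8.96 and 8.13 in tumour PBS, 8.83, 8.53 and 7.96 over the doses, and 7.24 and 6.72 at 24 h and 7 d. Dtx3l read 7.82 and 6.95, then 8.94 and 8.18, then 8.92, 8.46 and 8.28 over the doses, and 7.42 and 6.96 at 24 h and 7 d. These 3 genes rose by 1.59 ± 0.11, 1.40 ± 0.09 and 1.18 ± 0.09 (adjusted p = 0.00357, 0.00331 and 0.00433) and stepped down with dose. Trim25, the ligase that activates RIG-I, read 8.42 and 7.71 in healthy PBS, 8.75 and 7.96 in tumour PBS, 8.77, 8.59 and 8.38 over the doses, and 7.71 and 7.58 at 24 h and 7 d. Its difference of 0.29 ± 0.09 was not called (adjusted p = 0.0706), while that of the antibody receptor Trim21 was 0.65 ± 0.10 and called (adjusted p = 0.0154).

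Usp18, which removes ISG15 and damps the type I receptor, was singled out after its values were seen because it ran against the other members. It read 8.02 and 6.72 in healthy PBS, 7.33 and 5.84 in tumour PBS, 6.93, 7.67 and 7.10 at 1.7, 8.5 and 17 mM, and 6.41 and 6.39 at 24 h and 7 d. Healthy PBS was its highest array in each experiment, and it fell in the tumour by 0.79 ± 0.10 (adjusted p = 0.0105). It has a single probe set here, so no second measurement of it was available. Without the experiment block it was not called.

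Among the other induced genes all 3 tested rose. Rtp4, a chaperone of receptors, read 5.87 and 6.20 in healthy PBS, 8.77 and 8.15 in tumour PBS, 8.47, 8.84 and 8.27 at 1.7, 8.5 and 17 mM, and 7.91 and 6.52 at 24 h and 7 d. The dose arrays read near the sham level, and the tumour difference was 2.42 ± 0.28 (adjusted p = 0.00828). Xaf1, an inhibitor of the caspase blocker XIAP, read 6.24 and 6.24 in healthy PBS, 8.86 and 8.40 in tumour PBS, 8.54, 8.50 and 7.97 over the doses, and 7.50 and 6.49 at 24 h and 7 d. Ifi35 read 7.54 and 7.27 in healthy PBS, 8.51 and 8.32 in tumour PBS, 8.22, 7.99 and 7.66 over the doses, and 7.50 and 7.08 at 24 h and 7 d. Xaf1 rose by 2.39 ± 0.15 (adjusted p = 0.00344) and Ifi35 by 1.01 ± 0.09 (adjusted p = 0.00523).

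The 5 interferon-inducible GTPases, which act at the membranes around intracellular microbes, all rose. Iigp1 read 6.28 and 5.94 in healthy PBS, 9.21 and 8.48 in tumour PBS, 9.30, 9.28 and 8.46 at 1.7, 8.5 and 17 mM, and 7.88 and 6.10 at 24 h and 7 d. Its 2 lower doses sat at the sham level, and only the 17 mM array was lower. The tumour difference was 2.73 ± 0.14 (adjusted p = 0.00267). Igtp read 7.03 and 6.62 in healthy PBS, 9.86 and 8.78 in tumour PBS, 9.67, 9.59 and 8.82 over the doses, and 7.87 and 6.29 at 24 h and 7 d. Gbp3 read 6.92 and 6.01 in healthy PBS, 9.22 and 8.18 in tumour PBS, 9.05, 8.87 and 8.32 over the doses, and 7.27 and 5.88 at 24 h and 7 d. Both stepped down with dose and had tumour differences of 2.50 ± 0.21 for Igtp (adjusted p = 0.00461) and 2.23 ± 0.09 for Gbp3 (adjusted p = 0.0024). Gbp2 read 9.13 and 8.44 in healthy PBS, 11.01 and 10.33 in tumour PBS, 10.87, 10.69 and 10.06 over the doses, and 9.47 and 7.72 at 24 h and 7 d. Irgm1, a regulator of the other immunity-related GTPases, read 6.77 and 6.57, then 8.60 and 8.27, then 8.60, 8.43 and 7.78 over the doses, and 7.51 and 6.47 at 24 h and 7 d. Gbp2 rose by 1.89 ± 0.09 (adjusted p = 0.00254) and Irgm1 by 1.76 ± 0.09 (adjusted p = 0.00273).

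Without the block 22 of the 31 calls were kept, all of them higher, beside 12.8% of all genes called higher and 13.7% lower, and leaving out single PBS arrays in fits without the block left between 13 and 25 member calls. The lowest counts came without the healthy PBS array of experiment 2 (13 higher, beside 6.75% of all genes called higher and 11.8% lower) and without the tumour PBS array of experiment 1 (13 higher and 1 lower of 33, beside 7.41% and 14.2%). The highest came without the tumour PBS array of experiment 2 (25 higher, beside 14.5% and 8.91%), so the share called moved over all genes as well. Of the 15 other probe sets of 12 members, 14 read higher in the tumour in both experiments.

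Treatment of the tumours was the study's main question, and at 17 mM the whole set stood lower. All 34 members read below the sham-treated tumour of experiment 1, by a median of 0.81 log2, while 54.6% of all genes did so with a median of -0.06. The fit, which sets 1 array against 2 sham-treated arrays with the experiment as a block, called 14 members lower and 0 higher, and over all genes 10.6% lower and 15.7% higher. By role the calls were 1 of 3 transcription factors, 2 of 4 sensors, 4 of 12 effectors, 3 of 7 ISG15, ubiquitin and ADP-ribose genes, 1 of 3 other genes and 3 of 5 GTPases. A p-value here does not measure the variation between treated bladders, since 17 mM has 1 array.

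**Figure D3:**
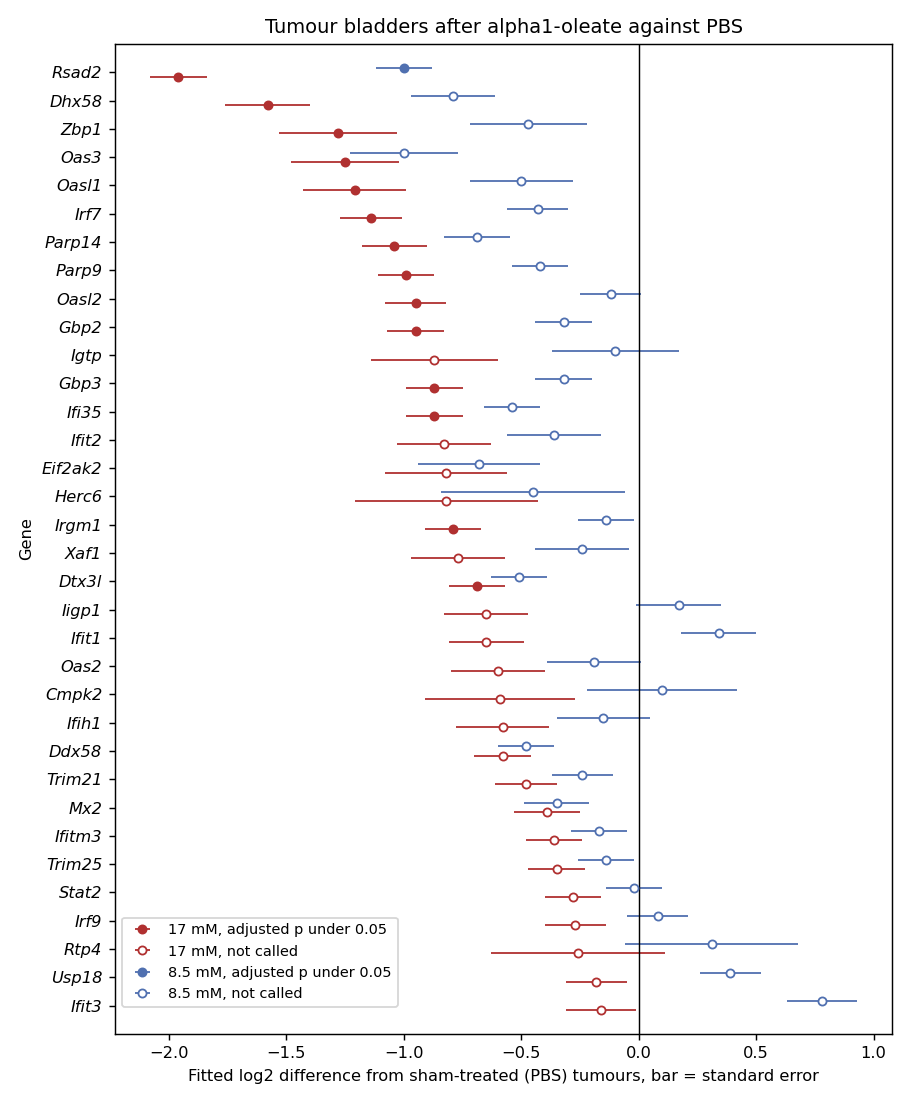
Fitted log2 difference from sham-treated tumours at 17 mM (red) and 8.5 mM (blue) for the 34 members, with standard errors and filled points for adjusted p under 0.05. Rsad2 stands lowest at both doses (-1.96 and -1.0), and every 17 mM point lies below 0 while Ifit3, Usp18, Ifit1 and Rtp4 lie above 0 at 8.5 mM.

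Rsad2 fell most at 17 mM, by 1.96 ± 0.12 (1 against 2 arrays; adjusted p = 0.0159). The sensors Dhx58 and Zbp1 fell by 1.58 ± 0.18 (adjusted p = 0.0219) and 1.28 ± 0.25 (adjusted p = 0.0474). Irf7 fell by 1.14 ± 0.13 (adjusted p = 0.0219), whereas the differences of the other two factors, Irf9 (-0.27 ± 0.13) and Stat2 (-0.28 ± 0.12), were not called. The OAS family members Oas3, Oasl1 and Oasl2 fell by 1.25 ± 0.23, 1.21 ± 0.22 and 0.95 ± 0.13. Parp14, Parp9 and Dtx3l, which had risen together in the tumour, fell by 1.04 ± 0.14, 0.99 ± 0.12 and 0.69 ± 0.12. Among the GTPases Gbp2 fell by 0.95 ± 0.12, Gbp3 by 0.87 ± 0.12 and Irgm1 by 0.79 ± 0.12, while Igtp at -0.87 ± 0.27 and Iigp1 at -0.65 ± 0.18 were not called (adjusted p = 0.107 and 0.0897). Ifi35 fell by 0.87 ± 0.12 (adjusted p = 0.0281). The smallest differences were those of Ifit3 (-0.16 ± 0.15), Usp18 (-0.18 ± 0.13) and Rtp4 (-0.26 ± 0.37), none of them called.

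These calls depend on the block. Without it 1 member, Rsad2, was called lower at 17 mM, beside 1.01% of all genes called lower and 9.16% higher, and the other 13 had adjusted p from 0.204 to 0.979. Without the tumour PBS array of experiment 1, the sham bladder handled with the 17 mM bladder, the fit also had no block. It set the 17 mM array of experiment 1 against the sham array of experiment 2, and the median difference was 0.04. Values of the 2 experiments were normalized apart, and the member median in sham-treated tumours was 8.09 in experiment 1 and 7.18 in experiment 2. That fit therefore cannot separate the dose from the experiment. With the 9 arrays quantile-normalized together 22 were called, the 14 above among them, beside 18.8% of all genes called lower and 18% higher. All 15 other probe sets of the members read lower at 17 mM than in the sham-treated tumour of experiment 1.

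The 8.5 mM bladder lay between. Its median member difference from the sham-treated tumour of experiment 1 was -0.33, and Rsad2 alone was called (-1.0 ± 0.12, adjusted p = 0.0317), beside 4.65% of all genes called lower and 11% higher. Without the block it was not called (adjusted p = 0.761), beside 0.343% of all genes called lower and 7.55% higher. Irf9, Ifit1, Ifit3, Usp18, Rtp4 and Iigp1 read above the sham-treated tumour there. Ifit3, an RNA-binding partner of Ifit1, was singled out after its values were seen as the one furthest above. It read 6.35 and 4.92 in healthy PBS, 7.38 and 5.68 in tumour PBS, 7.05, 8.09 and 7.15 at 1.7, 8.5 and 17 mM, and 6.12 and 5.27 at 24 h and 7 d. The 8.5 mM array was its highest, but the fitted difference of 0.78 ± 0.15 was not called (adjusted p = 0.0621). Without the block it was the 1 member called, 1.56 higher than in the sham-treated tumours. That fit averages the sham arrays of both experiments (7.38 and 5.68), which were normalized apart. Within experiment 1 the difference of Ifit3 was 0.71.

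The 1.7 mM bladder had a median member difference of -0.29 from the sham-treated tumour of experiment 1, with 29 of 34 members below it. No member was called by limma, and 4 had an unadjusted p under 0.05, while 0% of all genes were called. Rsad2 was again the lowest, at -1.26 ± 0.12 (adjusted p = 0.251), and Irf7 stood at -0.79 ± 0.13 (adjusted p = 0.258). Rsad2 read lower at 1.7 mM (7.45) than at 8.5 mM (7.71), and so did Irf7 (6.87 and 7.23).

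The doses were also set against each other. From 8.5 to 17 mM all 34 members read lower, by a median of 0.54, while the median of all genes was 0.01. Between 17 and 1.7 mM 0 members were called by limma, beside 1.89% of all genes called lower and 4.06% higher, and 16 members had an unadjusted p under 0.05. With the arrays quantile-normalized together 10 were called lower in that comparison, beside 9.38% of all genes called lower and 11.8% higher. Over PBS and the 3 doses of experiment 1, 17 of 34 members (50%) fell at every step, against 21.2% of all genes. The 17 mM array was the lowest of the 4 for 32 members (94.1%, against 34.8% of all genes), the exceptions being Ifit3 and Usp18, and the sham array the highest for 24 (70.6%, against 37.7% of all genes).

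A straight line through the doses called 14 members falling, beside 14.4% of all genes called falling and 16.5% rising. The steepest called slopes were those of Dhx58 (-0.089 ± 0.010 log2 per mM, adjusted p = 0.0234), Oas3 (-0.080 ± 0.015, adjusted p = 0.024) and Zbp1 (-0.074 ± 0.012, adjusted p = 0.0234). Rsad2 had the steepest slope of all members, -0.090 ± 0.027, but was not called (adjusted p = 0.0544). Without the block the line called 1 member, Oas3, beside 1.56% of all genes called falling and 7.84% rising, and with it, without the 1.7 mM array 0 (0% of all genes called), and without the 17 mM array 1 (7.38% of all genes called falling).

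Against healthy bladder, the 17 mM tumour bladder still read higher for 29 of 34 members within experiment 1, by a median of 0.70. Oasl2 (1.45 ± 0.13, adjusted p = 0.0459), Ifitm3 (1.35 ± 0.12, adjusted p = 0.0459), Gbp3 (1.37 ± 0.12, adjusted p = 0.0465) and Iigp1 (2.08 ± 0.18, adjusted p = 0.0459) were called higher and 0 members lower, beside 2.61% and 0.368% of all genes. Zbp1 stood at 2.50 ± 0.25 and was not called (adjusted p = 0.0504). Oas3 (-0.21 ± 0.23), Mx2 (-0.09 ± 0.14) and Trim25 (-0.06 ± 0.12) read at about the healthy level. The count ran from 0 with no filter on low genes, beside 1.12% of all genes called higher and 0.0585% lower, to 16 (15 higher, 1 lower) with joint quantile normalization, which called 9.83% of all genes higher and 8.46% lower. Without the block 9 were higher, beside 4.79% of all genes called higher and 0.142% lower.

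**Figure D4:**
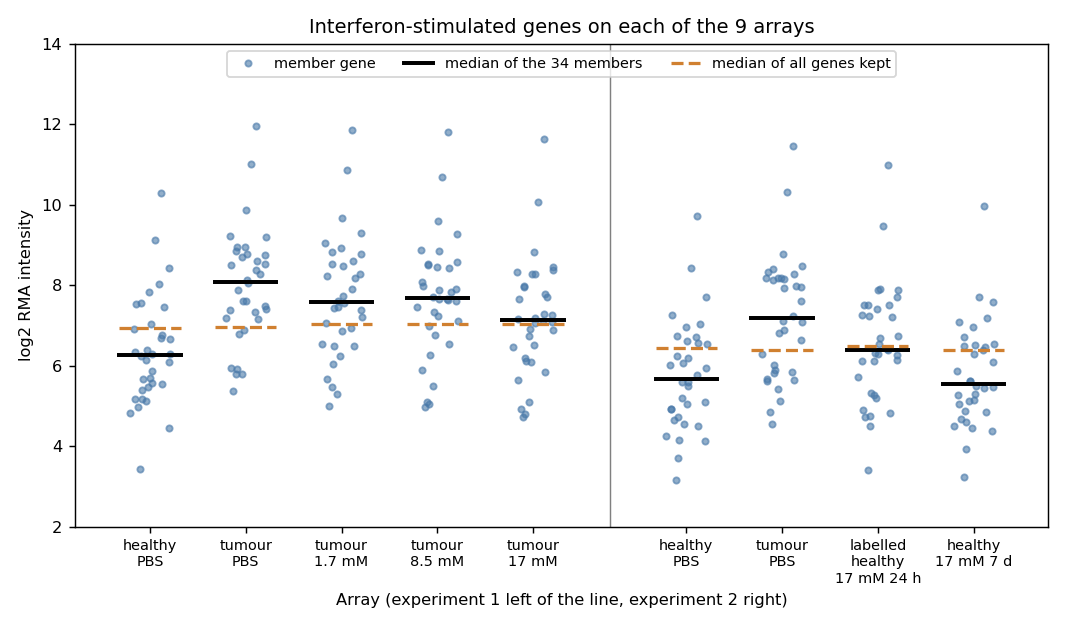
Log2 RMA intensity of the 34 members on each of the 9 arrays, 1 point per gene, with the median of the members (black) and of all genes kept (dashed). The member median was 6.26 in healthy PBS, 8.09 in tumour PBS, 7.58, 7.69 and 7.12 at 1.7, 8.5 and 17 mM in experiment 1, and 5.67, 7.18, 6.40 and 5.55 in healthy PBS, tumour PBS, 24 h and 7 d in experiment 2, while the dashed lines moved by little within an experiment.

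In bladders labelled healthy the question was what 17 mM alpha1-oleate does without a tumour. At 24 h, 31 of 34 members read above the healthy PBS bladder of experiment 2, with a median difference of 0.73 against -0.04 over all genes. No member was called by limma against the 2 healthy PBS arrays, as for 0% of all genes, and 21 members had an unadjusted p under 0.05. The highest fitted differences were those of Zbp1 (2.18 ± 0.25, adjusted p = 0.0959), Iigp1 (2.04 ± 0.18, adjusted p = 0.077) and Rtp4 (1.95 ± 0.37, adjusted p = 0.154). Rsad2, Stat2, Herc6 and Oas3 were within 0.53 log2 of healthy PBS in that experiment. So were Ifih1, Ddx58, Oasl1, Oas2, Mx2, Usp18, Trim21, Trim25, Parp9, Dtx3l and Ifi35. With the arrays quantile-normalized together 16 members were called higher, beside 5.41% of all genes called higher and 1.11% lower. Sums of markers of leukocytes and dividing cells on this array follow with the marker lists.

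Against the sham-treated tumours, the array labelled healthy, 17 mM, 24 h was called lower for 16 members and higher for 0, beside 13.6% and 17% of all genes. Rsad2 (-2.04 ± 0.12, adjusted p = 0.0142), Zbp1 (-1.60 ± 0.25, adjusted p = 0.03) and Dhx58 (-1.40 ± 0.18, adjusted p = 0.0224) stood furthest below. Ifit3 (0.37 ± 0.15) and Usp18 (0.52 ± 0.13) read above the tumours without a call. Without the block 5 members were called lower, beside 5.67% of all genes called lower and 5.95% higher. Leaving out single PBS arrays in fits without the block gave 1 to 10 lower, beside 2.08% to 8.46% of all genes, the 1 without the tumour PBS array of experiment 1.

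At 7 d the members read near healthy PBS. The median difference from healthy PBS in experiment 2 was 0.02, 20 members read above and 14 below it, and the range ran from -0.72 (Gbp2) to 0.46 (Eif2ak2). No member was called by limma, 1 had an unadjusted p under 0.05, and 0% of all genes were called. The smallest adjusted p among the members was 0.498, which does not show that the 7 d bladder equals the healthy one.

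Genes upstream of the set were taken from written lists. Of 15 listed interferon ligand genes 9 were measured and 2 passed the filter, neither of them called in the tumour or the 17 mM comparison. Ifnb1, encoding interferon beta, read between 3.34 and 3.59 on all 9 arrays, below the filter level of 4.16. Ifng, encoding interferon gamma, read 3.45 and 3.09 in healthy PBS, 5.15 and 3.70 in tumour PBS, 5.45, 4.62 and 4.09 at 1.7, 8.5 and 17 mM, and 3.04 and 3.01 at 24 h and 7 d. In each experiment it was higher in the sham-treated tumour than in healthy PBS, and at 17 mM it was lower than in sham, but the filter left it out of the test.

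**Figure D5:**
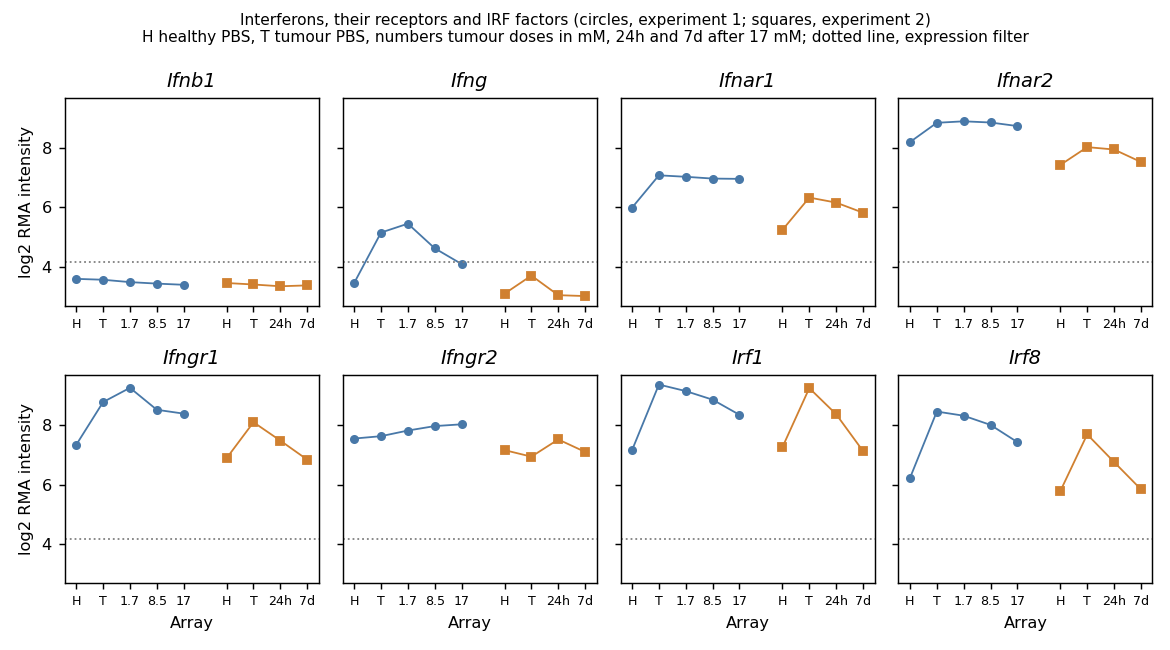
Log2 RMA intensity of Ifnb1, Ifng, the 4 receptor chains, Irf1 and Irf8 on the 9 arrays, with circles for experiment 1, squares for experiment 2 and a dotted line at the filter level of 4.16. Ifnb1 stays flat below the line, and Irf1 and Irf8 step down from PBS through the 3 doses.

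Of the 9 receptor and kinase genes 3 rose (33.3%) and 2 fell (22.2%) in the tumour, shares near the 28.6% of all genes called in each direction. At 17 mM 0 were called, beside 10.6% of all genes called lower and 15.7% higher. Ifnar1 rose by 1.09 ± 0.09 (adjusted p = 0.00443), Ifnar2 by 0.62 ± 0.09 (adjusted p = 0.0126) and Ifngr1 by 1.32 ± 0.11 (adjusted p = 0.00454), while Ifngr2 was not called (-0.07 ± 0.12). Ifnlr1, a chain of the type III receptor of epithelia, and Il10rb, its partner chain, fell by 0.85 ± 0.09 (adjusted p = 0.00696) and 0.42 ± 0.09 (adjusted p = 0.0299). At 17 mM the type I chains differed from sham by -0.12 ± 0.12 (Ifnar1) and -0.10 ± 0.12 (Ifnar2).

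Of 7 STAT and IRF factors outside the set that were tested, 6 rose in the tumour (85.7%) and 4 fell at 17 mM (57.1%). Over all genes, the background for both lists of this paragraph, 28.6% rose and 28.6% fell in the tumour. At 17 mM 10.6% of all genes were called lower and 15.7% higher. Irf1, the main factor downstream of interferon gamma, read 7.16 and 7.26 in healthy PBS, 9.37 and 9.25 in tumour PBS, 9.15, 8.86 and 8.35 at 1.7, 8.5 and 17 mM, and 8.37 and 7.13 at 24 h and 7 d. It rose by 2.10 ± 0.11 (adjusted p = 0.00266) and fell at 17 mM by 0.96 ± 0.14 (adjusted p = 0.0306). Irf8, a factor of myeloid cells, and Batf2 both rose by 2.08 and fell at 17 mM by 0.95 ± 0.17 and 1.42 ± 0.25. Irf5 rose by 1.49 ± 0.09 and fell at 17 mM by 0.67 ± 0.12. Of 13 sensing and relay genes 8 rose (61.5%) and 1, Mavs, fell in the tumour, and 3 fell at 17 mM (23.1%). Ifi204, a DNA sensor, rose by 4.40 ± 0.09 and fell at 17 mM by 1.68 ± 0.12. Sting1, the adaptor of cytosolic DNA sensing, rose by 3.46 ± 0.15 and fell by 1.21 ± 0.20, and the kinase gene Ikbke rose by 1.11 ± 0.10 and fell by 1.06 ± 0.13.

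Of 10 genes that restrain the pathway 6 rose in the tumour (60.0%, against 28.6% of all genes). At 17 mM 1 of the 10 fell, a share near the 10.6% of all genes. Socs3 rose by 3.23 ± 0.20 and Socs1 by 1.52 ± 0.25, and the phosphatase gene Ptpn6 rose by 2.04 ± 0.09 and fell at 17 mM by 1.03 ± 0.12 (adjusted p = 0.0236). A further 47 interferon-induced genes outside the set were tested, of which 40 rose (85.1%) and 1, Slfn5, fell in the tumour, and 19 fell at 17 mM (40.4%). The largest tumour differences were those of Slfn4 (4.38 ± 0.19) and of Ifi209, Ifi203 and Ifi205 of the PYHIN family of DNA-binding proteins (3.35 ± 0.23, 3.27 ± 0.17 and 3.19 ± 0.09). At 17 mM the RNA helicase gene Mov10 fell by 1.96 ± 0.26, Slfn4 fell by 1.72 ± 0.25, the ligase gene Rnf213 fell by 1.47 ± 0.12 and Oas1g, an oligoadenylate synthetase, fell by 1.45 ± 0.12, the largest falls among the 19.

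Markers of other cell types also differed between the arrays. In experiment 1 the summed linear intensity of 5 leukocyte markers was 382 in healthy PBS, 4954 in tumour PBS, and 4433, 4096 and 2949 at 1.7, 8.5 and 17 mM, and in experiment 2 it was 260, 2837, 1581 and 423 in healthy PBS, tumour PBS, 24 h and 7 d. The 6 macrophage markers summed to 664, 4437, 5068, 4536 and 3444, and to 419, 2660, 1854 and 725, in the same order. The 3 measured genes of dividing cells, Mki67, Top2a and Birc5, summed to 48, 3378, 2772, 1484 and 1066, and to 33, 2028, 447 and 46. All 3 lists thus stood lower at 17 mM than in sham and higher at 24 h than in healthy PBS. The macrophage sum was above sham at 1.7 mM and by little at 8.5 mM (4536 against 4437), where the member medians were -0.29 and -0.33. At 8.5 mM the markers were split: Adgre1, Csf1r and C1qa read above sham, and Cd68, C1qb and Mertk below it. At 17 mM the 6 macrophage markers had a median fitted difference of -0.28 from sham (-0.55 to -0.16). Of these markers 0 were called there, beside 10.6% of all genes called lower and 15.7% higher. The 6 urothelial markers went the other way, with 16929, 1540, 2718, 8808 and 10159, and 12743, 964, 8386 and 14837.

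Markers of plasmacytoid dendritic cells, the classic source of type I interferon, summed to between 106 and 146 on all arrays, and 2 or 3 of the 4 measured were below the filter level on each. Siglech, also on that list, was not measured. Klk1 read highest of the 4 on every array (5.90 to 6.62 log2), healthy PBS included, so the sum says little about these cells. The 7 T and NK cell markers summed to 193, 376, 409, 355 and 243 in experiment 1 and to 147, 219, 155 and 150 in experiment 2, and were above sham at 1.7 mM. Neutrophil markers, 4 of 6 measured, summed to 124, 2824, 793, 666 and 698, and to 67, 1474, 403 and 73, so they dropped at 1.7 mM, where the member median stood at -0.29. The 4 measured smooth muscle markers were 14645, 7132, 9780, 19222 and 22815, and 13289, 4730, 15454 and 10682. The 5 liver markers were 547, 83, 92, 807 and 1808, and 499, 72, 1031 and 377, highest on the 17 mM and 24 h arrays. They did not move as one. Ttr was high in healthy PBS (8.91 and 8.78 log2) and lower at 17 mM (8.16) and 24 h (8.29). Alb read 4.57 and 3.85 in healthy PBS, 10.15 at 17 mM and 8.80 at 24 h. Serpina1c, Apoa1 and Fgb were, like Alb, higher on those arrays than in healthy PBS. What part these shifts had in the member differences was not tested.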

How the data were processed

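Per the labels' protocols, total RNA came from frozen, pulverised tissue (RNeasy Mini kit), and the 3' IVT Express kit amplified 100 ng of it for each array. The deposited values are log2 intensities, made by the authors with RMA and Transcriptome Analysis Console 4.0.1.36, per the submitters' processing notes. The genome build is not given in the sources used here. Of 45077 probe sets, 28898 named 1 gene, 551 several and 15588 none, and 40 controls were left out. The probe set with the highest mean stood for its gene, and the lowest 30% of genes by mean (under 4.16 log2) were left out, keeping 11969 of 17097.

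The deposited values were normalized apart in the 2 experiments: the sorted values of arrays of the 2 experiments differed by 0.329 log2 on average, against a deviation of 0.022 within an experiment. Differences were fitted with limma 3.58.1 in R 4.3.3 (lmFit, eBayes) over 7 groups with the experiment number of the labels as a block, and p-values were adjusted by Benjamini-Hochberg over all genes kept. An adjusted p under 0.05 made a call. Groups with 1 array were assumed to vary like the replicated ones. This left 1 residual and 2.23 prior degrees of freedom (3 and 2.54 for the dose slope, in which PBS tumours have dose 0). Deviations from the group mean of PBS arrays of the same experiment correlated at 0.647. All comparisons with the sham-treated tumours share those arrays. Precision is limited by how few arrays there are. The scripts were tested on simulated data.

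Values on all arrays are given for up to 4 members per role with the largest tumour difference and the one with the smallest. Pathway genes are named by size among those called, up to 4 per list, beside Ifnb1, Ifng, the receptor chains and Irf1. The members, lists and tests were chosen with earlier results of these data known. Promoters were searched on both strands in Python 3.11.15 with pandas 2.3.3, and figures drawn with matplotlib 3.10.9. Alternatives were no block, joint quantile normalization, other filters, averaged probe sets, a trend in the prior variance, a minimum change of 2-fold, log2 dose, and leaving out arrays.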

Additional observations from a re-analysis of the deposited data

Results flagged for a closer look

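The member medians of 17 mM alpha1-oleate against PBS had opposite signs in the 2 settings. The median was -0.81 log2 in the tumour bladder of experiment 1, against the sham-treated tumour of that experiment, and 0.73 on the array labelled healthy, 17 mM, 24 h, against healthy PBS of experiment 2. Of the 34 members, 31 were lower in the first and higher in the second, as were 30.1% of all genes. The difference was not tested, each side has 1 treated array, and the schedules and times of sampling differ. The 24 h array is the one whose Mki67 level went against its label.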

How the results depend on the processing

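Fits in which a PBS array was left out dropped the replicate block as well, since no residual degree of freedom remained otherwise in the fit over 7 groups. The dose slope was fitted without the block there too, although its fit with the block had 3 residual degrees of freedom. The pairing of arrays by experiment rests on the labels, and without the replicate block the member calls were 22 in tumour against healthy PBS (31 with it), 1 at 17 mM against sham (14), 1 at 8.5 mM (1, a different gene and higher in place of lower), 9 at 17 mM against healthy PBS (4), 5 at 24 h against sham (16) and 1 for the dose slope (14). With PBS arrays left out in turn, calls ranged from 13 to 25 in tumour against healthy PBS (6.75% to 14.5% of all genes higher, 7.41% to 14.2% lower), 0 to 1 at 17 mM against sham (0.384% to 1.3% of all genes lower), 0 to 2 at 8.5 mM (both of the 2 higher, with 4.05% to 9.22% of all genes higher), 3 to 10 at 17 mM against healthy PBS, 0 to 3 at 24 h against healthy PBS, 1 to 10 at 24 h against sham and 0 to 2 for the slope, where leaving out dose arrays gave 0 to 16. The share of all genes called moved in those fits as well. Called higher against healthy PBS were 1.92% to 5.46% of all genes at 17 mM and 0.568% to 1.21% at 24 h. Called lower at 24 h against sham were 2.08% to 8.46%, and 0% to 4.09% had a falling slope. With dose arrays left out 0% to 12.1% had a falling slope, 12.1% beside the 16 member calls. Joint quantile normalization gave 22 calls at 17 mM, 7 at 8.5 mM (1 higher and 6 lower, beside 15.2% and 12.1% of all genes), 10 for 17 against 1.7 mM, 16 at 17 mM against healthy PBS and 16 at 24 h against healthy PBS. With the lowest 50% left out, 2 members were called at 8.5 mM (1 higher and 1 lower, beside 15.3% and 7.72% of all genes), 4 lower for 17 against 1.7 mM (4.42% of all genes) and 9 higher at 17 mM against healthy PBS (5.36%). The mean of probe sets gave 2 lower (5.18%), 4 lower (3.59%) and 10 (9 higher and 1 lower, beside 4.33% and 1.39%), and 1 higher at 24 h against healthy PBS (0.794%). A variance trend gave 3 lower for 17 against 1.7 mM (4.44% of all genes). It gave 10 higher at 17 mM against healthy PBS (4.79%) and 4 higher at 24 h against healthy PBS (1.65%). No filter gave 0 at 17 mM against healthy PBS, beside 1.12% of all genes higher and 0.0585% lower. A 2-fold minimum left 7 calls at 17 mM, 0 at 8.5 mM and 6 at 24 h against sham, and the share of all genes passing it was not computed. The causes of these shifts were not tested, except that a 2-fold minimum can only remove calls.

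Median tumour differences with the mean of probe sets were 1.40 in experiment 1 and 1.27 in experiment 2, and 1.72 in experiment 2 with the lowest 50% left out. The 24 h median was 0.51 and 1.04 under the same settings. The fitted median at 17 mM against sham, -0.78, was -0.39 without the block and turned to 0.04 without the tumour PBS array of experiment 1. The latter fit had no block either and set arrays of different experiments against each other. Called differences that changed sign in it were those of Dhx58 (0.38), Oasl1 (0.20), Parp14 (0.04), Dtx3l (0.10) and Gbp3 (0.14). The fitted median at 8.5 mM was 0.01 and that at 1.7 mM 0.16 without the block, and -0.33 to 0.38 and -0.29 to 0.60 with PBS arrays left out, negative in each without the tumour PBS array of experiment 2. That of 17 mM against healthy PBS, 0.67, was 1.13 without the block and 0.70 to 1.5 with PBS arrays left out. The fitted 24 h median, 0.87, was 0.22 without the block and -0.03 to 0.73 with PBS arrays left out, lowest without the healthy PBS array of experiment 2. The 7 d median, 0.06, was -0.21 without the block and -0.55, -0.23, -0.21 and 0.02 with PBS arrays left out. For single members 1617 of 1801 values under other settings kept their side of the threshold, 128 lost the call, 51 gained one and 5 changed sign after a call. A change of sign where neither fit made a call was counted among the 1617, so that number does not show that direction was kept.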
